A study of Mus musculus with 13 samples.

Results

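The mouse guide strands mmu-miR-99a-5p, mmu-miR-99b-5p, mmu-miR-100-5p, mmu-miR-125a-5p and mmu-miR-125b-5p, written below without the species prefix, were examined in spontaneous abdominal neuroblastomas of TH-MYCN mice, which express MYCN in the sympathetic lineage. The 5 miRNAs were taken by name, as the miRNAs whose genes lie in clusters with let-7 genes, from the 1079 mouse miRNAs on a 1-colour Agilent array. Of 13 tumours, 7 were labelled caspase-8 deficient with metastasis to the bone marrow, and 6 were labelled wild-type caspase-8 with no such metastasis. Genotype and metastasis therefore cannot be told apart. All 13 tumours were called biological replicates, each on its own array. The labels state neither the age of the mice nor how caspase-8 was removed, and the arrays do not read caspase-8 mRNA, so the genotype labels could not be checked.

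MicroRNAs guide the silencing complex to messenger RNAs, chiefly through the seed, bases 2 to 8 of the mature strand. The miR-125 family is the mammalian counterpart of the worm timing gene lin-4, and together with let-7 it is known to repress Lin28. The miR-99 and miR-100 family is known for repressing Mtor and Igf1r. In neuroblastoma these families are of interest because LIN28B blocks let-7 maturation and let-7 in turn represses MYCN, and because human miR-125b is known to promote neurite outgrowth in neuroblastoma cells.

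The mature strands fell into 2 seed families, which are shown because the seed fixes the family and the bases outside it separate its members. The capitals mark bases 2 to 8, and the sequences and positions are those of RefSeq on build GRCm38.p6, all on the plus strand.
miR-99a-5p: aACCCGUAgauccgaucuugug
miR-100-5p: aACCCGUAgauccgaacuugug
miR-99b-5p: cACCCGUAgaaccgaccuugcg
miR-125b-5p: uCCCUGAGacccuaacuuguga
miR-125a-5p: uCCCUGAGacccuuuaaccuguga
let-7c-5p: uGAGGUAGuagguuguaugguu
Counted from the 5′ end, miR-100-5p differed from miR-99a-5p by the single substitution U16A. The strand of miR-99b-5p differed from miR-99a-5p by A1C, U11A, U16C and U21C. The 2 miR-125 strands shared their first 13 bases and were 22 nt long for miR-125b-5p and 24 nt long for miR-125a-5p. Probe sequences were not available for use here, so cross-reaction between the 2 strands that are 1 base apart was not tested. Nor was cross-reaction among the let-7 strands, such as let-7a-5p and let-7c-5p, whose levels had r = 0.893 over the 13 tumours.

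The genes form 3 clusters of the same order, miR-99 or miR-100 first, let-7 next and miR-125 last. On chromosome 16, miR-99a-5p (chr16:77598940-77598961) was followed by let-7c-5p after 732 bases (start to start) and by a copy of miR-125b-5p (chr16:77646279-77646300) after 47339 bases. On chromosome 9, miR-100-5p (chr9:41531437-41531458) was followed by a let-7a gene after 5340 bases and by the other copy of miR-125b-5p (chr9:41581940-41581961) after 50503 bases, all within the non-coding host gene Mir100hg. On chromosome 17, miR-99b-5p (chr17:17830194-17830215), let-7e and miR-125a-5p (chr17:17830817-17830840) lay within 0.683 kb inside the gene Spaca6. The miR-125b-5p signal is thus the sum of 2 loci, and let-7a-5p and let-7c-5p also have genes outside these clusters.

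Of the 1079 miRNAs, 294 were detected on every array, and 419 were detected on at least 6 arrays and tested. The number detected per array ran from 338 to 469, and the 75th percentile of signal used for scaling ran from 851 to 1929. All 7 listed neuronal and sympathetic miRNAs were detected in all tumours, with a summed scaled intensity of 6690 to 11203 in deficient tumours and 7116 to 14858 in wild-type tumours. Summed skeletal muscle miRNAs ran from 88.7 to 8994 in deficient and from 163 to 3588 in wild-type tumours, and the 2 matched erythroid miRNAs from 19934 to 83502 in deficient and from 4988 to 69047 in wild-type tumours. Endothelial sums ran from 1110 to 4494 (median 3455) in deficient and from 1522 to 2850 (median 2087) in wild-type tumours. Stromal sums ran from 894 to 2405 (median 1774) in deficient and from 1055 to 2824 (median 1346) in wild-type tumours. Leukocyte sums ran from 817 to 4063 (median 1185) in deficient and from 651 to 4691 (median 1464) in wild-type tumours. No difference in these sums was tested. The arrays lay on 2 slides. Slide 1 held 5 deficient and 2 wild-type tumours, and slide 2 held 2 deficient and 4 wild-type tumours. Slide and group are therefore partly confounded, and a difference within a slide rests on 2 tumours in 1 of its groups.

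All 5 guide strands were detected on all 13 arrays, and none of them differed between caspase-8 deficient and wild-type tumours past the threshold. By limma with Benjamini-Hochberg adjustment over the 419 miRNAs, 0 of 5 passed an adjusted p of 0.05, as did 0 of 419 (0%). At an unadjusted p under 0.05 there were 0 of the 5, against 16 of 419 (3.82%). The difference was positive for 2 of the 5, against 227 of 419 (54.2%), and the median difference of the 5 was -0.10 on the log2 scale, against 0.04 over all tested. Values overlapped between the groups for each of the 5, and the groups were separate for 1 of 419 (0.239%).

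In the miR-99 and miR-100 family, miR-99a-5p had a lowest, median and highest log2 level of 9.63, 9.98 and 10.26 in deficient tumours and 9.23, 10.03 and 10.94 in wild-type tumours. Deficient tumours lay inside the wild-type range, whose extremes were wild-type replicates 6 and 2. The means were 9.94 ± 0.26 (SD, n = 7) in deficient and 10.04 ± 0.61 (SD, n = 6) in wild-type tumours, a fold of 0.935 (95% interval 0.642 to 1.36, limma adjusted p = 0.921). The sign turned without wild-type replicate 2 (difference 0.08), and the difference was -0.71 within slide 1 and 0.21 within slide 2.

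The strand 1 base away, miR-100-5p, had log2 levels of 6.62, 7.12 and 7.82 (lowest, median and highest) in deficient tumours and 7.01, 7.32 and 7.83 in wild-type tumours. The highest tumours of both groups were almost level, and 3 of 7 deficient tumours lay below every wild-type tumour. The means were 7.15 ± 0.38 (SD, n = 7) in deficient and 7.36 ± 0.33 (SD, n = 6) in wild-type tumours, a fold of 0.864 (95% interval 0.627 to 1.19, limma adjusted p = 0.715). Within slides the difference was -0.50 on slide 1 and 0.19 on slide 2. The member of the family on chromosome 17, miR-99b-5p, had 6.96, 7.20 and 7.47 in deficient tumours and 6.54, 7.03 and 7.25 in wild-type tumours. Deficient tumours 1 and 3 were above all wild-type tumours, and 3 wild-type tumours were below all deficient ones. Its fold was 1.13 (95% interval 0.885 to 1.44, limma adjusted p = 0.675), and it was similar in size on both slides (differences of 0.16 and 0.15 on slides 1 and 2).

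In the miR-125 family, miR-125b-5p, the strand made from 2 loci, had log2 levels of 11.60, 11.76 and 12.07 in deficient tumours and 11.57, 11.93 and 12.41 in wild-type tumours. As for miR-99a-5p, the deficient values lay inside the wild-type range, here bounded by wild-type replicates 4 and 3. The means were 11.82 ± 0.16 (SD, n = 7) in deficient and 11.94 ± 0.32 (SD, n = 6) in wild-type tumours, a fold of 0.919 (95% interval 0.711 to 1.19, limma adjusted p = 0.805). For miR-125a-5p the levels were 7.68, 7.89 and 8.29 in deficient tumours and 7.39, 7.86 and 8.22 in wild-type tumours. The groups overlapped almost fully, with 1 deficient tumour above and 2 wild-type tumours below the other group. Its fold was 1.09 (95% interval 0.842 to 1.42, limma adjusted p = 0.801). In bulk tumours, fewer cells of a type and less RNA per cell cannot be told apart in any of these levels.

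**Figure D1:**
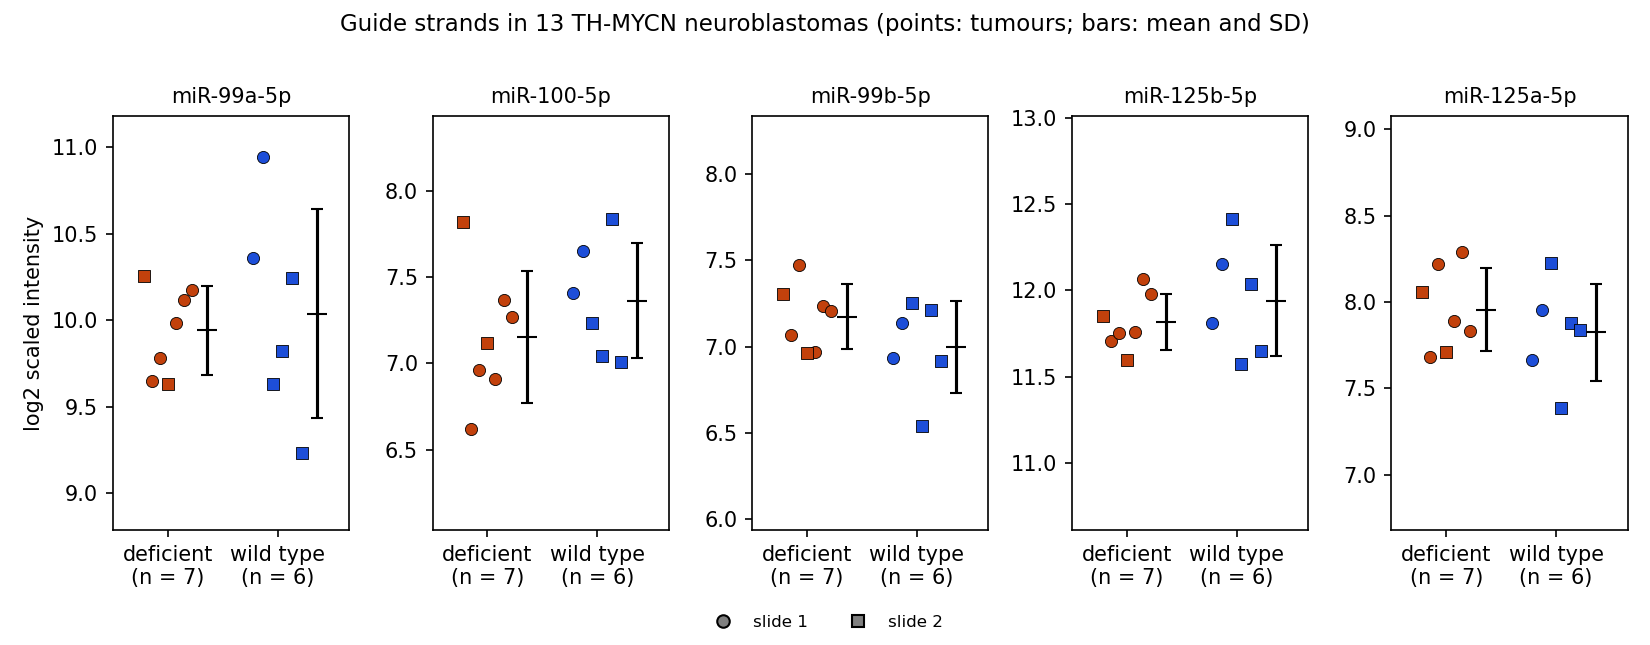
Log2 scaled intensity of the 5 guide strands in each tumour, with deficient tumours on the left and wild-type tumours on the right of each panel, all panels spanning the same number of log2 units. Points are tumours, circles lie on slide 1 and squares on slide 2, bars show mean and SD, and the groups overlap in every panel.

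The let-7 guide strands were also without a call. Of 9 let-7 family guide strands, 0 passed the adjusted threshold (limma) and 0 an unadjusted p under 0.05. Their differences ran from -0.06 to 0.24, with 6 of 9 positive and a median of 0.02. Among the cluster partners the difference was -0.06 (SE 0.18) for let-7c-5p, -0.02 (SE 0.19) for let-7a-5p and 0.24 (SE 0.21) for let-7e-5p.

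**Figure D2:**
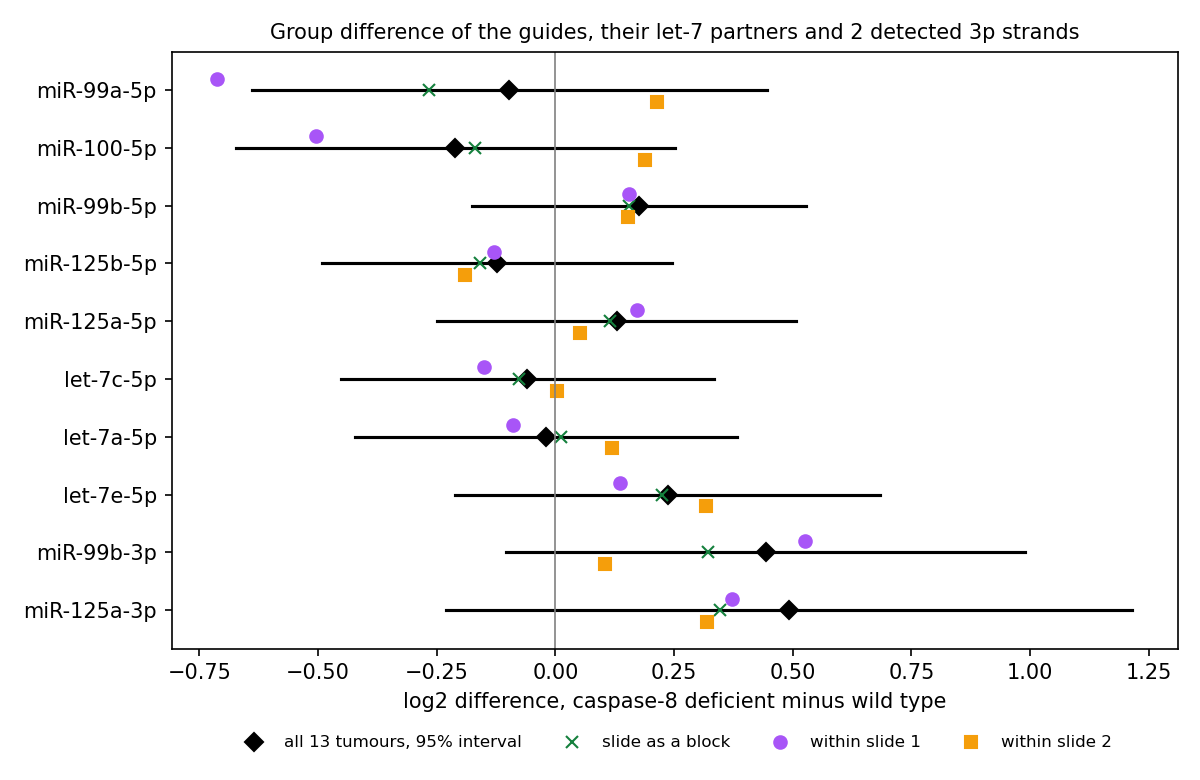
Log2 difference, caspase-8 deficient minus wild type, of the 5 guide strands, the 3 let-7 cluster partners and 2 detected 3p strands. Diamonds with lines are the estimate over 13 tumours with its 95% interval, other symbols are the same difference with slide as a block and within each slide, and every interval crosses 0.

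Levels of different probes are not comparable, and their spread over the tumours is given as a description. Spread also depends on the probe. In scaled intensity the 2 probes of miR-100-5p ran from 90.7 to 197 and from 5.82 to 31.4. The SD over 13 tumours was 0.234 for miR-99b-5p, 0.245 for miR-125b-5p and 0.258 for miR-125a-5p, ranks 9, 15 and 25 from the smallest among 294 miRNAs detected on every array, whose median SD was 0.471. It was 0.363 for miR-100-5p (rank 103) and 0.434 for miR-99a-5p (rank 137). Between the lowest and the highest tumour, miR-125b-5p spanned 1.79-fold, miR-125a-5p 1.87-fold, miR-99b-5p 1.91-fold, miR-100-5p 2.32-fold and miR-99a-5p 3.28-fold. The whole range of miR-99a-5p was set by wild-type tumours. All 5 had an SD below the median, but 3 of 5 did when the arrays were scaled by the percentile over all mouse miRNAs.

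Each guide strand was read by 2 probes with 20 spots each, which served as a technical check. The correlation of the probes over 13 tumours was 0.993 for miR-99a-5p, 0.967 for miR-99b-5p, 0.923 for miR-125b-5p and 0.864 for miR-125a-5p, where both probes had a difference of the same sign. For miR-100-5p it was 0.335. Its dimmer probe lay between 5.82 and 31.4 in scaled intensity, with a median spot CV of 22.9%, and had a difference of 0.23, whereas the brighter probe, which gave 83.5% to 95.8% of the signal, had a difference of -0.25. The miR-100-5p level is therefore mostly that of a single probe.

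Several guide strands varied together across tumours, above all miR-125b-5p with let-7c-5p and miR-125a-5p with miR-99b-5p and let-7e-5p. Pearson's r was computed for the 10 pairs of guide strands and for the 6 pairs of a guide strand with the let-7 strand of its cluster, with 100000 permutations and adjustment over the 16. Of these, 8 passed an adjusted p of 0.05: 5 of the 6 pairs with let-7, 1 of 3 pairs of guide strands within a cluster (r from 0.420 to 0.854) and 2 of 7 pairs of guide strands between clusters (r from 0.099 to 0.694). No difference between these sets was tested. As a description, r of a guide strand with a let-7 strand of its own cluster had a median of 0.743 over 6 pairs, and with a let-7 strand of another cluster a median of 0.554 over 9 pairs, the highest being 0.738 for miR-125a-5p with let-7c-5p. Other let-7 strands were left out of this contrast. From outside the 3 clusters, let-7b-5p had r = 0.899 with miR-125b-5p, above every pair in the contrast. Over all 43071 pairs of the 294 miRNAs the median r was 0.0168 and the 90th percentile 0.613. This background depended on the scaling, with a median of 0.345 and a 90th percentile of 0.779 when arrays were not scaled, where 12 of the 16 pairs passed. Within slides, with 7 and 6 tumours, 0 pairs passed on slide 1 and 1 on slide 2.

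The closest pair was miR-125b-5p with let-7c-5p, at r = 0.895 (permutation p = 2e-05, adjusted p = 0.00032) and Spearman's rho = 0.934 (permutation p = 2e-05), n = 13. It was 0.793 on slide 1 and 0.929 on slide 2, and 0.794 without the 2 tumours farthest from the median. The log2 ratio of this pair had an SD of 0.120 and spanned 1.33-fold, and 0.0743% of all pairs of miRNAs had a smaller SD. Each strand alone also varied little, with an SD of 0.245 for miR-125b-5p and 0.269 for let-7c-5p (ranks 15 and 30 of 294). This limits how wide their ratio can be. Both strands were highest in wild-type replicate 3, and both lowest in wild-type replicate 4.

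The chromosome 17 cluster gave the other tight group. The pair miR-125a-5p and miR-99b-5p had r = 0.854 (permutation p = 0.00018, adjusted p = 0.00096; rho = 0.808, p = 0.00166), with 0.762 on slide 1, 0.921 on slide 2 and 0.798 without the 2 farthest tumours. With let-7e-5p, miR-125a-5p had r = 0.847 (permutation p = 8e-05, adjusted p = 0.00064; rho = 0.786, p = 0.00237), with 0.736 on slide 1, 0.925 on slide 2 and 0.709 without the 2 farthest. For miR-99b-5p and let-7e-5p r was 0.760 (permutation p = 0.00377, adjusted p = 0.0147; rho = 0.670, p = 0.0152), with 0.467 on slide 1 and 0.891 on slide 2, but it was 0.448 (permutation p = 0.168) without deficient replicate 3 and wild-type replicate 4, so the relation rests on those tumours, and it was 0.486 and no longer past the threshold without wild-type replicate 4 alone.

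On chromosome 9, miR-100-5p and let-7a-5p had r = 0.720 (permutation p = 0.00551, adjusted p = 0.0147; rho = 0.747, p = 0.00455), which was 0.602 (permutation p = 0.0502) without deficient replicate 2 and wild-type replicate 5. It was 0.825 on slide 1 and 0.702 on slide 2, and with deficient replicate 2 alone left out it was 0.639 and no longer past the threshold. The pair miR-125b-5p and let-7a-5p had r = 0.726 (permutation p = 0.00513, adjusted p = 0.0147; rho = 0.824, p = 0.001) with 0.759 on slide 1, 0.744 on slide 2 and 0.737 without the 2 farthest. For miR-100-5p and miR-125b-5p, of the same locus, r was 0.503 (permutation p = 0.0813, adjusted p = 0.130), while rho was 0.621 (permutation p = 0.0275, adjusted p = 0.0441). Without wild-type replicate 3, r of this pair was 0.681 (permutation, adjusted p = 0.0266).

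On chromosome 16, the relation of miR-99a-5p to its neighbours depended on which tumours were included. Over 13 tumours r was 0.389 with let-7c-5p (permutation p = 0.186, adjusted p = 0.248; rho = 0.467, p = 0.114) and 0.420 with miR-125b-5p (permutation p = 0.155, adjusted p = 0.225; rho = 0.462, p = 0.116), neither past the threshold. Without wild-type replicate 3, r was 0.698 with let-7c-5p (permutation, adjusted p = 0.0228) and 0.800 with miR-125b-5p (permutation, adjusted p = 0.00524), both past it. Without wild-type replicates 2 and 6, however, r with let-7c-5p was 0.217 (permutation p = 0.534). With miR-125b-5p it was 0.704 (permutation p = 0.0150) without wild-type replicates 2 and 3. On slides 1 and 2, r was 0.826 and 0.239 with let-7c-5p, and 0.786 and 0.220 with miR-125b-5p. Both pairs also passed with the percentile over all miRNAs (0.716 and 0.735) and with summed-signal scaling (0.631 and 0.638). Within groups, r with let-7c-5p was 0.909 in the 7 deficient tumours and 0.268 in the 6 wild-type tumours, and r with miR-125b-5p was 0.807 in deficient and 0.305 in wild-type tumours. The difference between the groups was not tested, and wild-type replicate 3 is among the 6. The log2 ratio of miR-99a-5p over let-7c-5p ran from -3.50 to -3.19 in deficient tumours, with an SD of 0.131, and from -4.21 to -2.59 in wild-type tumours, with an SD of 0.621. The lowest was wild-type replicate 3, and the other 5 wild-type tumours ran from -3.87 to -2.59, with an SD of 0.479.

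Over all 13 tumours, miR-99a-5p varied with miR-100-5p, the strand 1 base away on chromosome 9, at r = 0.694 (permutation p = 0.00758, adjusted p = 0.0173; rho = 0.720, p = 0.00697). It was 0.910 on slide 1, 0.891 on slide 2 and 0.717 without the 2 farthest tumours, and 0.263 (not past the threshold) when both probes of a miRNA were weighted equally as log2 values. The other pair across loci, miR-125a-5p and miR-125b-5p, had r = 0.641 (permutation p = 0.0179, adjusted p = 0.0359; rho = 0.665, p = 0.0162). It was 0.362 on slide 1 and 0.813 on slide 2, and it fell short of the threshold without any 1 of wild-type replicates 3 (0.557) or 4 (0.563) or deficient replicates 2 (0.622), 4 (0.618) or 6 (0.616). The other pairs of guide strands across clusters had r of 0.547 or less, and the highest of these, miR-125b-5p with miR-99b-5p, passed without deficient replicate 3 (0.717). By rank, that pair passed over all 13 tumours (rho = 0.621, permutation p = 0.0270, adjusted p = 0.0441).

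**Figure D3:**
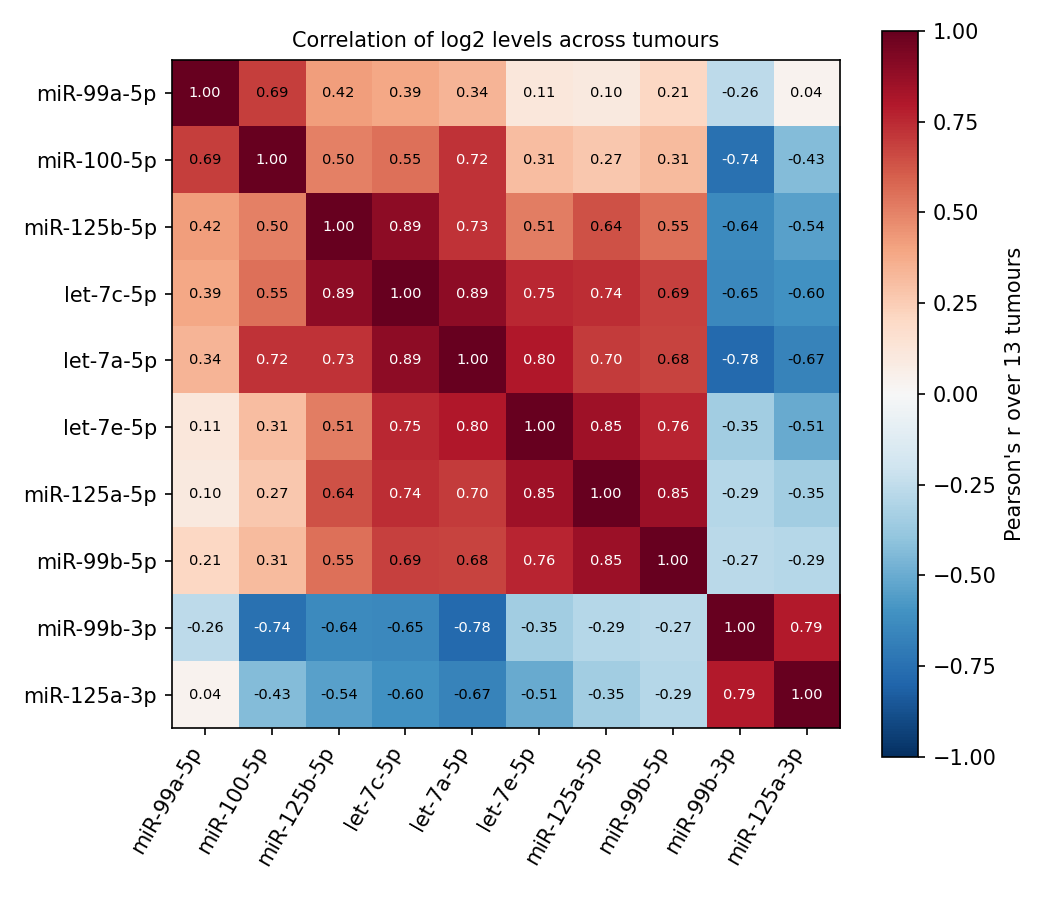
Pearson's r of log2 levels over 13 tumours between the 5 guide strands, the 3 let-7 cluster partners and 2 detected 3p strands. The strongest colours on the guide strand side are miR-125b-5p with let-7c-5p (0.895) and miR-125a-5p with miR-99b-5p (0.854). Both 3p strands are negative against every guide strand, except miR-125a-3p with miR-99a-5p (0.035). The lowest of these is -0.743, for miR-99b-3p with miR-100-5p, a pair that was not tested.

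**Figure D4:**
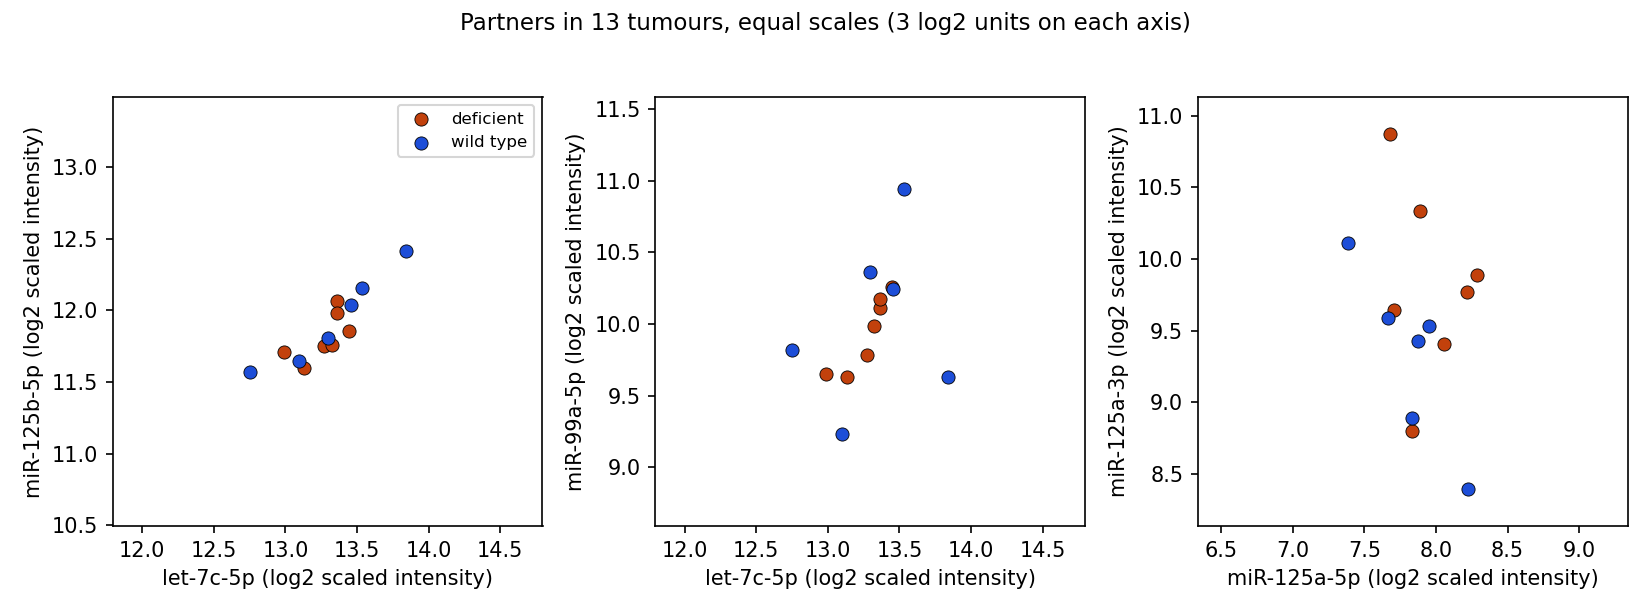
Log2 scaled intensity of miR-125b-5p against let-7c-5p (left), miR-99a-5p against let-7c-5p (middle) and miR-125a-3p against miR-125a-5p (right), one point per tumour, with equal scales. The left panel is a narrow band, in the middle the deficient points are narrow and the wild-type points wide, and the right panel has no common trend.

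For each guide strand the 3 most similar of 414 other tested miRNAs were listed by Pearson's r over 13 tumours, as a description. They were let-7b-5p (0.899), let-7c-5p (0.895) and miR-128-3p (0.801) for miR-125b-5p, and let-7e-5p (0.847), miR-674-3p (0.799) and let-7b-5p (0.796) for miR-125a-5p. For miR-99b-5p they were let-7e-5p (0.760), miR-30e-3p (0.758) and miR-674-3p (0.753). For miR-100-5p they were miR-340-5p (0.840), miR-128-3p (0.762) and miR-350-3p (0.722), and for miR-99a-5p miR-500-3p (0.740), miR-379-3p (0.702) and miR-411-3p (0.690). Let-7 strands thus stood among the nearest of the miR-125 strands and of miR-99b-5p, and not among those of miR-99a-5p and miR-100-5p. Of these let-7 strands, let-7b-5p has no gene in the 3 clusters.

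Log2 ratios within a tumour do not depend on the scaling of the array and compare the balance of strands between the groups. Of 9 ratios, 0 passed the adjusted threshold by exact permutation over 1716 splits. The lowest unadjusted p was for miR-125b-5p over miR-125a-5p, the only 1 of the 9 under 0.05. Its lowest, median and highest values were 3.53, 3.87 and 4.15 in deficient tumours and 3.81, 4.17 and 4.20 in wild-type tumours. The means were 3.86 ± 0.20 (SD, n = 7) in deficient and 4.12 ± 0.15 (SD, n = 6) in wild-type tumours, so that deficient minus wild type was -0.25 (two-sided exact permutation p = 0.0286 and 0.257 after adjustment). With slide kept fixed it was -0.27 (exact permutation p = 0.0349, adjusted p = 0.314), and the difference was -0.30 within slide 1 and -0.24 within slide 2. It stayed between -0.31 and -0.20 with any 1 tumour left out. Among the 6 ratios of a guide strand to its let-7 partner, differences ran from -0.19 for miR-100-5p over let-7a-5p to -0.04 for miR-99a-5p over let-7c-5p (exact permutation, adjusted p from 0.558 to 0.883).

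**Figure D5:**
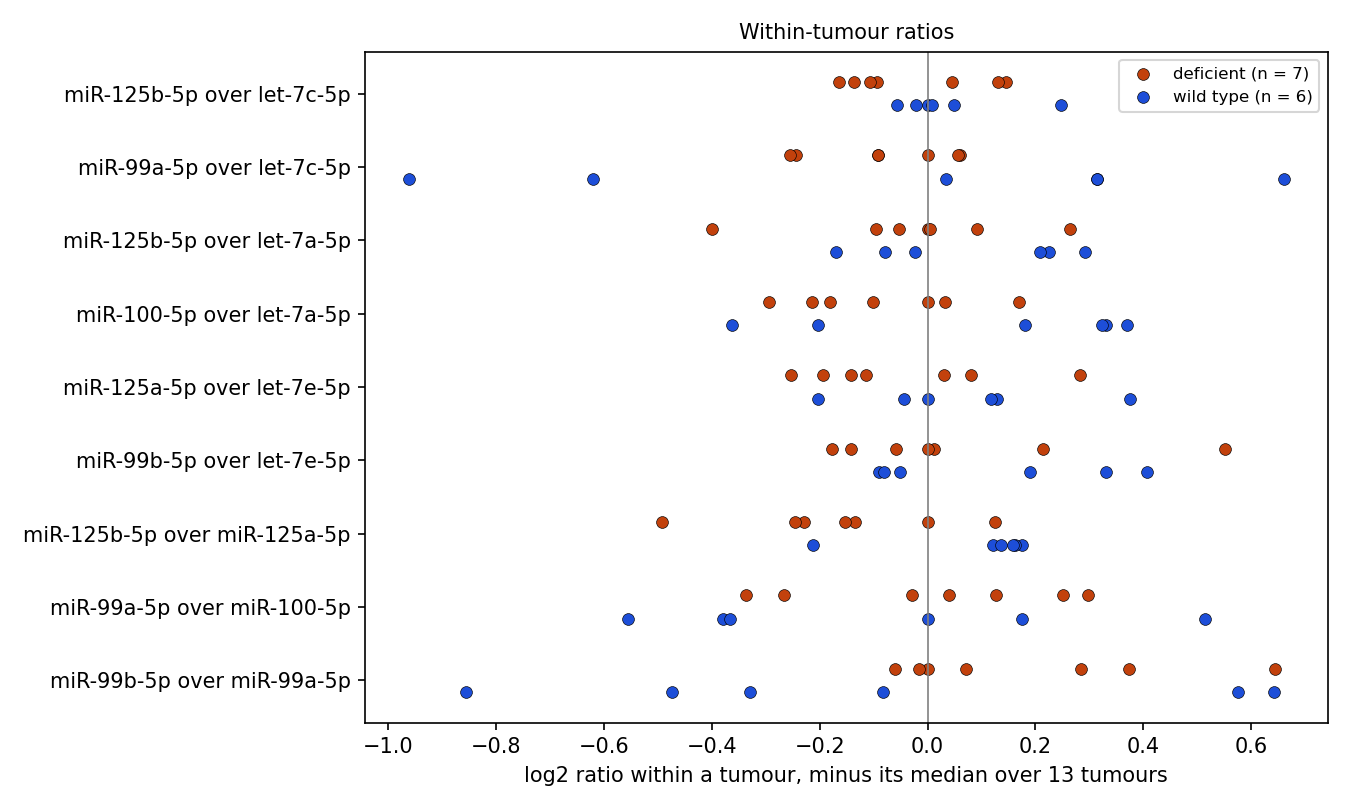
Log2 ratio of 9 pairs of strands within each tumour, minus the median of that ratio over 13 tumours, with deficient tumours drawn above wild-type tumours in each row. The ratio of miR-125b-5p to let-7c-5p is the narrowest, that of miR-99a-5p to let-7c-5p is wide in wild-type tumours, and 5 of 6 wild-type points of miR-125b-5p over miR-125a-5p lie close together above most deficient points.

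The 3p strands of these hairpins were detected from chromosome 17 but not from the other loci. On 0 of 13 arrays were miR-99a-3p, miR-100-3p, miR-125b-1-3p and miR-125b-2-3p detected, nor was miR-351-5p, an X-linked miRNA with the miR-125 seed. The 2 detected strands are shown with their seeds, which differ from those of the 5p strands.
miR-99b-3p: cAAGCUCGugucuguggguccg
miR-125a-3p: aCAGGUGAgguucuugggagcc
Their log2 level averaged 6.84 ± 0.52 (SD, n = 7) in deficient and 6.39 ± 0.36 (SD, n = 6) in wild-type tumours for miR-99b-3p, and 9.82 ± 0.66 in deficient and 9.32 ± 0.60 in wild-type tumours for miR-125a-3p. The differences were 0.44 (SE 0.25, limma adjusted p = 0.589) and 0.49 (SE 0.34, limma adjusted p = 0.644), and neither passed the threshold.

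Neither 3p strand was correlated with its 5p strand past the threshold. Over 13 tumours r was -0.266 for miR-99b-3p with miR-99b-5p (permutation p = 0.390, adjusted p = 0.390; 0.155 on slide 1, -0.845 on slide 2 and -0.586 without the 2 farthest; rho = -0.214, p = 0.483) and -0.351 for miR-125a-3p with miR-125a-5p (permutation p = 0.239, adjusted p = 0.359; -0.126 on slide 1, -0.846 on slide 2 and -0.040 without the 2 farthest; rho = -0.258, p = 0.395). The log2 ratio of miR-125a-3p to miR-125a-5p ran from 0.17 to 3.19, an 8.15-fold span, so the 3p signal was the higher in every tumour. Levels of different probes are not comparable, so which arm was more abundant was not tested. Both 3p strands followed each other, at r = 0.790 (permutation p = 0.00094, adjusted p = 0.00282; rho = 0.841, p = 0.00051; 0.765 and 0.730 on slides 1 and 2; 0.694 without the 2 farthest tumours).

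The level of both 3p strands depended on which of their 4 probes was read. For miR-125a-3p the 3 dimmer probes agreed among themselves over 13 tumours (r from 0.953 to 0.988), whereas their sum had r = 0.389 with the brightest probe. The brightest probe gave 26.7% to 79.8% of the signal and ran from 102 to 1498 in scaled intensity, highest in deficient replicate 2 at 1498, where the other 3 together had 379. Without it, the difference was 0.20 in place of 0.49, and r with miR-125a-5p was -0.092 (permutation p = 0.764, adjusted p over 2 relations 0.932; rho = 0.121, p = 0.696; 0.564 on slide 1 and -0.804 on slide 2). For miR-99b-3p the difference was 0.09 in the brightest probe and 0.48, 0.85 and 0.82 in the others, and 0.69 in the sum of those 3 in place of 0.44. As a description, r with miR-99b-5p was -0.596 for its brightest probe, and it was -0.027 for the sum of the others (permutation p = 0.932, adjusted p over 2 relations 0.932; rho = -0.099, p = 0.7504; 0.137 on slide 1 and -0.640 on slide 2). The miR-99b-3p probes with differences of 0.85 and 0.82 were dim, at 7.55 to 35.4 and 8.03 to 35.3 in scaled intensity. Their median spot CVs were 23.3% and 24.1%. This split by probe was chosen after seeing the data. The miRNAs most similar to the summed signal of miR-125a-3p were miR-1901 (0.964), miR-3960 (0.957) and miR-328-5p (0.948).

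Markers of other cells were set beside the guide strands. Of 30 relations between the 5 strands and the mean log2 level of each of 6 marker lists, 0 passed the adjusted threshold. The strongest was miR-125b-5p with the erythroid mean, at r = -0.677 (permutation p = 0.0114, adjusted p = 0.341). Its rho was -0.533 (permutation p = 0.0634), and r was -0.682 on slide 1, -0.695 on slide 2 and -0.229 without the 2 farthest tumours. The scaling percentile of the array was not related past the threshold to any of 10 described miRNAs, the largest being r = -0.510 for miR-99a-5p (permutation p = 0.0743, adjusted p = 0.604). For miR-99a-5p, rho was -0.258 (permutation p = 0.394), and r was 0.195 without the 2 arrays farthest from the median percentile.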

How the data were processed

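Total RNA of 13 tumours was measured on 1-colour Agilent miRNA arrays. Per the file headers, the authors' deposited intensity values are spot brightness from Feature Extraction 10.7.3.1 (10.5.1.1 in the submitters' processing notes), background-subtracted and detrended, with no scaling between arrays. Detection and outlier marks are other values, deposited as yes or no. The deposited series matrix holds log2 values with equal distributions across arrays, whose making is not given in the sources used here. It served as an alternative.

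Spots without outlier marks were averaged per probe and probes summed per miRNA. Sums were scaled to the 75th percentile over the 294 miRNAs detected on all arrays, raised to a floor of 17.2 and taken to log2. Those seen on 6 or more arrays (419) entered limma 3.58.1 (R 4.3.3), a step tested on simulated data. Correlations used permutation and ratios exact permutation (Python 3.11.15, SciPy 1.17.1). No spot was saturated. With 13 arrays a 95% interval of a log2 difference had a median half-width of 0.626, which limits what can be called. Normexp background correction used the spot median signal.

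The members and lists were chosen with earlier results of these data known. Named miRNAs were the 5 guide strands, their 3p strands, miR-351-5p, the let-7 strands of their clusters and the 3 nearest miRNAs of each. Replicate numbers did not pair the tumours: same-numbered deviations correlated from -0.22 to 0.19.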

Additional observations from a re-analysis of the deposited data

Results flagged for a closer look

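In 3 of 38 groups of values, 1 tumour lay farther from the rest than Dixon's 95% critical value allows, and chance alone gives about 1 in 20. The log2 level of let-7e-5p was lowest in deficient replicate 2, at 8.48 with the next tumour at 8.98 (gap over range 0.586). The log2 ratio of miR-125b-5p over miR-125a-5p was lowest in wild-type replicate 6, at 3.81 with the next at 4.15 (gap over range 0.864), and without that tumour the group difference was -0.31. The log2 ratio of miR-125b-5p over let-7c-5p was highest in wild-type replicate 4, at -1.18 with the next at -1.38 (gap over range 0.649).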

How the results depend on the processing

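Under every alternative run, 0 of the 5 guide strands and 0 of all tested miRNAs passed the threshold, and 0 of 9 ratios did. The differences of miR-99b-5p and miR-125a-5p kept their sign throughout. With no scaling, which moved the median of all tested from 0.04 to 0.23, the differences were 0.10 for miR-99a-5p, 0.0712 for miR-125b-5p, 0.17 for let-7a-5p and 0.13 for let-7c-5p. Within slide 2 they were 0.21 for miR-99a-5p, 0.19 for miR-100-5p, 0.12 for let-7a-5p and 0.0027 for let-7c-5p. That of let-7a-5p was 0.0255 with the percentile over all miRNAs, 0.0013 with the total gene signal and 0.0112 in the slide-block fit. With probe means on the log2 scale miR-100-5p gave 0.0076, and miR-99b-3p ran from -0.0023 with normexp to 1.13 with the total gene signal. With 1 tumour left out, differences ran from -0.259 to 0.0844 for miR-99a-5p, from -0.137 to 0.0479 for let-7a-5p and from -0.174 to 0.0431 for let-7c-5p. The sign of let-7a-5p turned without wild-type replicates 3 or 5 or deficient replicates 2 or 4, and that of let-7c-5p without wild-type replicate 3.

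The 8 correlations past the threshold became 16 with the percentile over all miRNAs, 14 with summed-signal scaling, 12 with no scaling, 0 within slide 1 and 1 within slide 2, where fewer tumours were tested, and 6 to 10 with 1 tumour left out. Over all pairs of miRNAs the median r was 0.197 with the percentile over all miRNAs, 0.198 with summed-signal scaling and 0.345 with no scaling. In the same order the 90th percentile of r was 0.741, 0.741 and 0.779, against 0.613 in the main setting. Within slide 1, r was -0.229 for miR-99a-5p and miR-99b-5p, -0.0409 for miR-99a-5p and miR-125a-5p and -0.0289 for miR-100-5p and miR-99b-5p. With normexp, 3 called pairs missed the threshold: miR-100-5p with let-7a-5p (0.290), miR-99b-5p with let-7e-5p (0.223) and miR-125a-5p with let-7e-5p (0.585). With the authors' series matrix miR-125b-5p with let-7a-5p did (0.549). The 5 strands with an SD below the median became 3 with the percentile over all miRNAs. The cause was not tested. Ratios turned as follows. For miR-99a-5p over miR-100-5p the difference was -0.0944 with probe means, -0.0959 in the slide-block fit and -0.208 within slide 1. For miR-100-5p over let-7a-5p it was 0.00896 with probe means and 0.0689 within slide 2. Within slide 1 it was 0.0218 for miR-125b-5p over let-7c-5p, 0.0195 for miR-99b-5p over let-7e-5p and 0.0364 for miR-125a-5p over let-7e-5p. Within slide 2 it was -0.0595 for miR-99b-5p over miR-99a-5p and 0.21 for miR-99a-5p over let-7c-5p, which ran from -0.22 to 0.10 with 1 tumour left out.

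Replicate numbers share no litter or batch in the labels, and 3 of 6 same-numbered pairs had deviations correlated over 0.1. With the number as a replicate block, the differences were -0.14, 0.17, -0.23, 0.15 and -0.15 for miR-99a-5p, miR-99b-5p, miR-100-5p, miR-125a-5p and miR-125b-5p, and 0 calls changed.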
